A study of Drosophila melanogaster with 10 samples.

Results

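The piRNA profile of control OSCs was compared between the antisense and the sense strand of each transposon, using 3 of the 10 libraries of the series. OSCs are a cell line grown from the somatic cells of the Drosophila melanogaster ovary. The 3 libraries, named siLuc, came from cells of wildtype genotype that received a control siRNA against luciferase at the start and again at 48 h, and that were harvested at 96 h. Argonaute-bound small RNAs were purified from the cells and sequenced, and the authors deposited the coverage of every position of 122 transposon consensus sequences on each strand. All 122 elements were examined for how evenly each strand was covered, how much of the consensus was covered, in how many stretches, and where the higher strand changed. A second set of 2 control libraries, from the OSC line with a UAS-tethering construct upstream of the flamenco promoter and transfected with Gal4 alone, served only to look at the higher strand of the same windows and elements again. The tables hold transposon coverage only, so the identity of the cells could not be checked against marker genes.

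piRNAs are small RNAs that guide PIWI proteins to transposon transcripts by base pairing, so a piRNA that is antisense to an element can recognise its mRNA, whereas a sense piRNA has the sequence of the mRNA itself. In the somatic cells of the fly ovary, most piRNAs are cut from long transcripts of piRNA clusters such as flamenco, in which fragments of LTR retrotransposons lie mainly in the antisense orientation. These cells carry Piwi but not the ping-pong partners of the germline, so sense and antisense piRNAs are not made there in exchange for one another. The profile along a consensus therefore shows which parts of an element are represented among the precursors of each strand.

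Coverage is given per nt and per 1000000 miRNA reads. Values rise in steps of 0.5 read, and the size of this step put the miRNA reads behind the siLuc libraries at 1297626 to 1799370. Antisense reads made up 91.4% to 91.6% of the coverage. Over the 610009 positions of all elements, antisense coverage was above 0 at 82.4% to 83.5% and sense coverage at 61.2% to 63.2%. The 3 libraries varied beyond sampling noise, so none was taken as a second deposit of another. The labels number them without saying whether they are separate cultures, so the p-values measure the spread between these 3 libraries. In bulk RNA, low coverage from few cells and low coverage in every cell cannot be told apart.

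A mean coverage of at least 10 was reached by 66 elements on the antisense strand and by 38 on the sense strand. Both strands reached it in 25 elements and neither strand in 43. Tested with limma on log2(coverage + 1), antisense coverage was higher in 52 of the 79 elements with at least 1 such strand (65.8%) and sense coverage in 25 (31.6%), at a Benjamini-Hochberg adjusted p of 0.05. Elements above the minimum on 1 strand only entered through that strand, so the filter set the direction of their difference. Of the 25 elements with both strands above it, 12 had more antisense and 13 more sense coverage. The classes differed in the counts over the 79 elements, which carry the same limit. Antisense was higher in 30 of 40 elements of the Gypsy superfamily, LTR retrotransposons that include the errantiviruses, and in 15 of 17 LINEs, retrotransposons without LTRs. All 5 elements of the mdg1 group of Gypsy elements were among them. Sense coverage was higher in 3 of 4 Copia elements, in 7 of 11 DNA transposons with terminal inverted repeats and in both Helitron-type repeats tested.

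With 1 added to each strand, the elements with the strongest excess of sense coverage were copia, Circe and gypsy12, at log2 ratios of −6.25, −5.82 and −4.76. With 10 added they were −5.68, −3.90 and −2.34, so the place of gypsy12 rests on the value added. Circe, a Gypsy element, had a sense coverage of 194, 183 and 139 and an antisense coverage of 2.13, 2.49 and 1.58. gypsy12, also of that superfamily, had 51.1, 47.6 and 34.6 sense against 0.66, 0.69 and 0.61 antisense. The libraries of the 2 strands were far apart in both, as follows from naming them for the largest ratios.

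The share of each class in the signal differed between the strands. Gypsy elements held 91.4% ± 0.04 (SD, n = 3) of all antisense coverage and 60.4% ± 0.21 of all sense coverage. Copia elements held 0.121% ± 0.002 of the antisense coverage and 23.8% ± 0.26 of the sense coverage. The sense shares rest largely on single elements. On the scale of log2(coverage + 1), sense coverage was 10.4 in copia, 7.78 in Copia1, 4.52 in 1731 and 2.01 in Dm88. Errantiviruses held 42.8% ± 0.18 of all sense coverage, and among them springer had 10.9 on that scale, followed by 17.6 with 4.87. Within the mdg1 group, 99.6% ± 0.02 of the coverage was antisense, and within the Helitron-type repeats it was 6.17% ± 0.39.

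The 5 elements with the most antisense coverage were 412, gtwin, mdg1, gypsy and Idefix, all LTR retrotransposons of the Gypsy superfamily, and in 4 of them at least 93.2% of positions were covered on that strand. Evenness is given as the Gini coefficient, which is 0 when every position has the same coverage and nears 1 when a single position holds it all. A position was counted as covered above 10% of the mean of its strand in that element. For 412, a retrotransposon of the mdg1 group, antisense coverage was 8799, 8692 and 6411 in the 3 libraries, the Gini coefficient was 0.23, 0.23 and 0.24, and 97.2%, 97.2% and 97.1% of positions were covered. For gtwin, an errantivirus, the antisense Gini coefficient was 0.25, 0.26 and 0.27, and 99.8% of its 7411 nt were covered in 1 unbroken stretch in each library. The antisense profiles of gypsy, the type element of the errantiviruses, and Idefix had Gini coefficients of 0.27 ± 0.006 and 0.34 ± 0.005 (SD, n = 3), at coverages of 2727 ± 504 and 2535 ± 448. mdg1 stood apart from these, with antisense Gini coefficients of 0.47, 0.47 and 0.48, 72.4% ± 0.30 of positions covered and an uncovered run of 733 nt. With the consensus cut into 3 equal parts, only 10.1% of its antisense coverage lay in the first part.

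Sense coverage of these 5 elements was thin. It ranged from 0.144 for gtwin to 9.55 for gypsy, below the minimum for a comparison of profiles. For gtwin the library with the fewest sense reads had at least 36 of them, so a share of 18.7% ± 3.42 covered sense positions is bounded by depth.

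The 5 elements with the most sense coverage were springer, copia, Repbase_DNAREP1, Transpac and Copia1, and they came from 3 classes. Repbase_DNAREP1, a short Helitron-type repeat of 594 nt, had a sense coverage of 1422, 1295 and 968. For springer, an errantivirus, sense coverage was 2127, 2027 and 1531, concentrated with a Gini coefficient of 0.71, 0.72 and 0.71. For copia, the element that gives the Copia superfamily its name, sense coverage was 1550, 1507 and 1113, with a Gini coefficient of 0.43, 0.44 and 0.44 and 99.1% ± 0.04 of positions covered in 1 stretch. Transpac, a Gypsy element, had the most even sense profile of the 38 elements above the minimum. Its sense Gini coefficient was 0.24, 0.26 and 0.27, and the antisense value of the same element was 0.25, 0.23 and 0.25, although its sense coverage of 288 ± 44.95 (SD, n = 3) exceeded its antisense coverage of 22.2 ± 4.41.

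Among all elements above the minimum on a strand, antisense profiles had a median Gini coefficient of 0.41 (66 elements, range 0.18 to 0.96) and sense profiles of 0.58 (38 elements, range 0.26 to 0.95). The median share of covered positions was 94.3% on the antisense and 82.3% on the sense strand. The sets overlap in part. Of the 38 elements in the sense set, 25 were also among the 66 in the antisense set. The medians therefore do not compare the strands within the same elements. By class, the antisense and sense medians of the Gini coefficient were 0.34 and 0.56 for Gypsy elements (34 and 17 elements). They were 0.45 and 0.73 for LINEs (16 and 5), 0.45 and 0.50 for BEL/Pao elements (3 and 4), and 0.50 and 0.68 for DNA transposons with terminal inverted repeats (9 and 7). Copia elements went the other way, at 0.89 on the antisense and 0.55 on the sense strand (3 and 3).

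The most even antisense profiles were those of gypsy10_new, flea and Tabor, all Gypsy elements, with Gini coefficients of 0.18 ± 0.01, 0.22 ± 0.003 and 0.23 ± 0.007 (SD, n = 3). The least even ones were those of Tirant, baggins and Copia1. Tirant, an errantivirus, had 11.1% ± 1.07 of its 8524 nt covered at an antisense coverage of 10.6 ± 2.24, just above the minimum. For baggins, a LINE with an antisense coverage of 459 ± 70.5, 98.9% of the coverage lay in the last of the 3 parts and the longest uncovered run measured 4724 of its 5453 nt. On the sense strand BS, also a LINE, was the least even, with 99.7% of its sense coverage in the last part. Its antisense coverage was 2.93 ± 0.45. Stalker and gypsy3_new followed BS, with sense Gini coefficients of 0.93 ± 0.001 and 0.90 ± 0.001. After Transpac, the most even sense profiles were those of Juan, a LINE (0.33 ± 0.006), and Quasimodo (0.39 ± 0.01).

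For the 25 elements with both strands above the minimum, the Gini coefficient was compared within each library. Antisense coverage was more even than sense coverage in 19 of them (76%) and less even in 2 (8%), with a median difference of −0.10 (antisense minus sense, limma, adjusted p below 0.05). The difference passed in the direction of more even antisense profiles in 8 of 11 Gypsy elements, 4 of 4 LINEs, 4 of 5 DNA transposons with terminal inverted repeats, 2 of 2 BEL/Pao elements and the 1 Helitron-type repeat. Neither of the 2 Copia elements was among them.

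The largest differences were in Stalker2, Stalker and F-element. Stalker2, of the mdg1 group, had Gini coefficients of 0.31, 0.31 and 0.31 on the antisense and 0.83, 0.84 and 0.84 on the sense strand (difference −0.53, SE 0.006, adjusted p = 1.41e-12). Stalker, of the same group, had 0.44, 0.45 and 0.45 against 0.93, 0.93 and 0.93 (difference −0.48, SE 0.004, adjusted p = 5.25e-13). In both, the sense signal was a few peaks. The top 1% of positions held 38.8% of the sense coverage of Stalker2 and 45.1% of that of Stalker, against 3.33% and 7.24% on the antisense strand. F-element, a LINE of the jockey type, had 0.33, 0.34 and 0.35 against 0.79, 0.79 and 0.79 (difference −0.45, SE 0.005, adjusted p = 1.41e-12). These 3 elements were named for the largest differences with the same sign in all libraries, so the gap between their strands follows from that choice.

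Less even antisense profiles were found in Copia1 and Quasimodo. In Copia1 the antisense Gini coefficient was 0.91, 0.92 and 0.92 and the sense one 0.54, 0.55 and 0.55 (difference +0.36, SE 0.004, adjusted p = 1.41e-12). In Quasimodo, an errantivirus, it was 0.51, 0.51 and 0.52 against 0.38, 0.39 and 0.40 (difference +0.12, SE 0.005, adjusted p = 7.77e-09). Quasimodo differs from Copia1 in level, since its antisense coverage of 1166 ± 210 (SD, n = 3) exceeded its sense coverage of 23.98 ± 3.54, whereas Copia1 had 30.5 ± 5.90 antisense and 222 ± 42.3 sense. The 4 elements that did not pass were copia, springer, gypsy3_new and Tc1-2, with differences between −0.02 and 0.01. Transpac passed with a difference of −0.02 (adjusted p = 0.048), but the sign held in 2 of 3 libraries only.

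**Figure D1:**
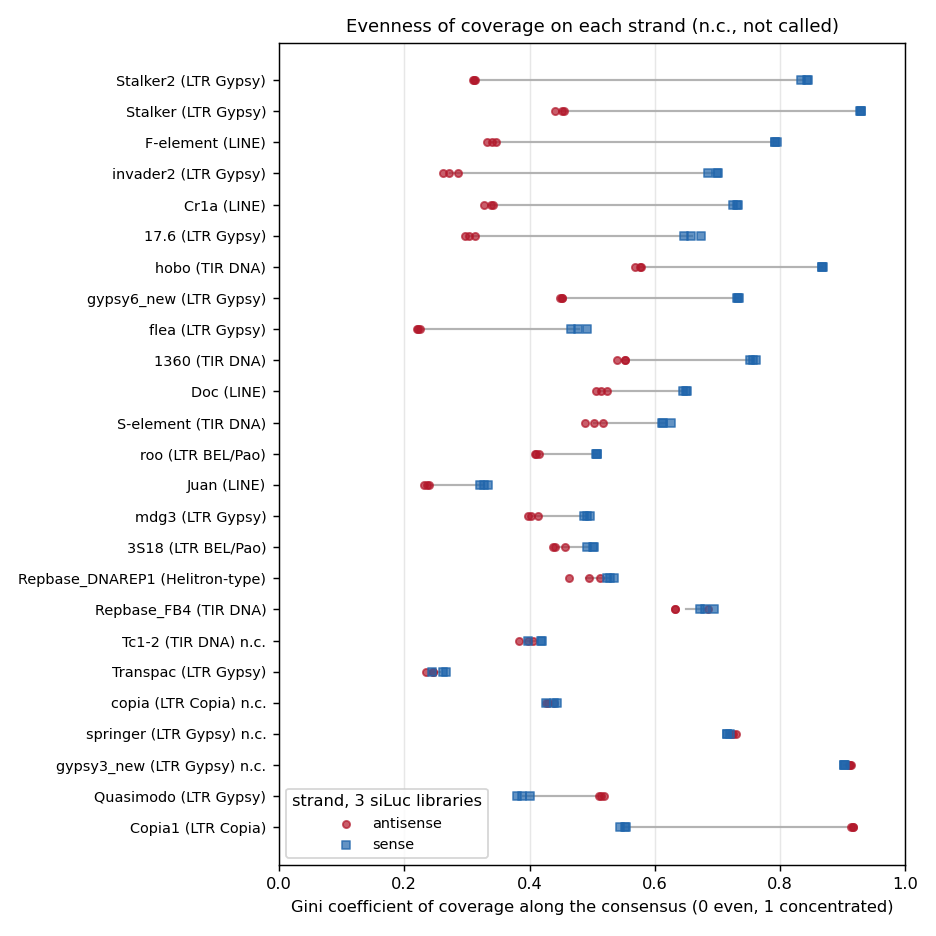
Gini coefficient of coverage along the consensus (horizontal axis, 0 even and 1 concentrated) for the 25 elements with a coverage of at least 10 on both strands, with 1 point per strand and siLuc library and a grey line between the strand means. In 19 elements the antisense points lie lower by the test, from Stalker2 with a difference of −0.53 at the top, and in Quasimodo and Copia1 at the bottom they lie higher.

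The level of coverage differed between the strands of these elements as well. Of the 12 elements with more antisense than sense coverage, 11 were more even on the antisense strand (median difference −0.27). Of the 13 elements with more sense coverage, 8 were still more even on the antisense strand (median difference −0.03) and 1 was less even. In the 10 elements whose strands lay within 4 times of each other, 8 passed towards more even antisense profiles and 1, gypsy3_new, towards the opposite. The part that depth has in the differences was not tested beyond these counts.

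The covered share followed the same comparison with fewer calls. Antisense coverage reached more of the consensus in 14 of the 25 elements (56%) and less in 5 (20%), with a median difference of +2.80 percentage points. The increases were found in 7 of 11 Gypsy elements, 4 of 5 DNA transposons with terminal inverted repeats, 2 of 4 LINEs and the Helitron-type repeat, and both Copia elements were covered less on the antisense strand.

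Stalker, 1360 and F-element gained the most. In Stalker 94.0%, 93.9% and 93.4% of positions were covered on the antisense strand and 36.7%, 38.1% and 38.8% on the sense strand (difference +55.9 points, SE 0.64, limma adjusted p = 4.54e-06). In 1360, a DNA transposon with terminal inverted repeats, it was 97.1%, 97.9% and 98.1% against 45.9%, 44.7% and 44.3% (difference +52.7 points, SE 0.65, adjusted p = 4.54e-06). This element had less antisense than sense coverage, 39.0 ± 6.77 against 96.7 ± 15.4 (SD, n = 3), so the more widely covered strand was the one with fewer reads. These differences depend on the limit. With every position above 0 counted as covered, that of 1360 was +4.29 points (adjusted p = 0.055), that of Stalker +14.6 and that of F-element +0.60. F-element was covered over 99.2% ± 0.01 on the antisense and 63.5% ± 0.53 on the sense strand, where 1 uncovered run measured 1510 nt.

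Copia1, Quasimodo and springer were covered less on the antisense strand. In Copia1 15.8%, 17.0% and 16.6% of positions were covered on the antisense and 90.6%, 90.1% and 90.6% on the sense strand (difference −74.0 points, SE 0.46, limma adjusted p = 1.61e-06). In Quasimodo it was 71.7%, 70.7% and 70.6% against 93.3%, 92.1% and 94.0%, and in springer 68.6%, 68.2% and 69.1% against 80.4%, 79.0% and 80.0%. The limit of 10% of the strand mean sets the last pair of values. With a fixed limit of 10 in coverage the difference in Quasimodo became +23.0 points, and with a limit of 25% of the mean that in springer became +1.00.

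The number of covered stretches was the least stable of the measures. Runs of covered positions less than 25 nt apart were joined, and stretches were counted per 1000 nt of consensus. The sense strand was broken into more stretches in 6 of 25 elements (24%) and the antisense strand in 4 (16%), with a median difference of 0. Among the 6 was Cr1a, with a difference of only −0.22 per 1000 nt (SE 0.005, limma adjusted p = 0.0019). Its call rests on a spread near 0 between the libraries. Stalker2 had 7, 6 and 6 antisense stretches and 31, 30 and 32 sense stretches (difference −3.22 per 1000 nt, SE 0.08, limma adjusted p = 0.0019). Copia1 had 22, 19 and 18 antisense and 6, 6 and 6 sense stretches (difference +3.02, SE 0.24, adjusted p = 0.013), and gypsy3_new, a Gypsy element, had 14, 13 and 12 against 3, 3 and 3 (difference +1.32, SE 0.07, adjusted p = 0.0065). The call of Stalker2 held when any 1 library was left out. Those of Copia1 and gypsy3_new were lost without replicate 2 and without replicate 3, with differences that stayed at +3.09 and +3.20 in Copia1 and at +1.32 and +1.39 in gypsy3_new. Without replicate 3, limma called 2 elements with more sense stretches and 0 with more antisense stretches, of which 3 had an unadjusted p below 0.05. Without replicate 2 the counts were 3 and 2, and without replicate 1 they were 3 and 4.

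The strands also differed in where along the element they lay. The centre of coverage, the mean position weighted by coverage, is given as a percent of the consensus length from the 5′ end of the sense strand. Antisense coverage lay nearer the 3′ end in 13 of 25 elements (52%) and nearer the 5′ end in 11 (44%), and the median difference was +1.63 points. Both directions occurred in a class, with 6 and 5 of 11 Gypsy elements and 2 and 2 of 4 LINEs.

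Doc, springer and Cr1a had antisense coverage nearer the 3′ end. Doc is a jockey-type LINE, whose new copies are made from the 3′ end of the RNA and are often cut short at the 5′ end. The centre of its antisense coverage was at 70.4%, 70.9% and 71.2% and that of its sense coverage at 19.6%, 19.4% and 19.9% (difference +51.2 points, SE 0.18, limma adjusted p = 9.18e-08). Of the 3 equal parts of Doc, the last held 74.6% of its antisense coverage and the first 81.4% of its sense coverage. In springer the centres were at 64.3%, 64.5% and 64.2% on the antisense and 37.1%, 36.5% and 37.3% on the sense strand. In Cr1a, a LINE of the CR1 type, they were at 51.1%, 50.2% and 50.6% against 23.8%, 23.4% and 23.5%, and its sense coverage peaked at nt 377 of 4470 with 6325, 6054 and 4725.

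In gypsy3_new, Stalker and invader2 the antisense centre lay nearer the 5′ end than the sense centre. In gypsy3_new the antisense centre was at 50.4%, 50.4% and 50.4%, with 46.8% and 47.1% of the coverage in the first and the last of the 3 parts and 6.16% in the middle one, and the sense centre at 85.6%, 85.6% and 85.6% (difference −35.2 points, SE 0.09, limma adjusted p = 5.98e-08). The antisense coverage of gypsy3_new was 723 ± 132 in the 398 nt repeat at its ends and 8.77 ± 1.27 between them. Reads of the repeat were split equally between the ends, so its antisense centre near the middle is largely set by that split. In Stalker 92.8% of the sense coverage lay in the last of the 3 parts, and the difference was −22.2 points (SE 0.11, adjusted p = 2.43e-07). invader2, a Gypsy element, had antisense centres of 48.2%, 48.8% and 48.5% and sense centres of 68.7%, 67.7% and 68.2%. Its strands carried nearly the same coverage, 29.1 ± 4.77 antisense and 26.9 ± 5.33 sense (SD, n = 3).

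**Figure D2:**
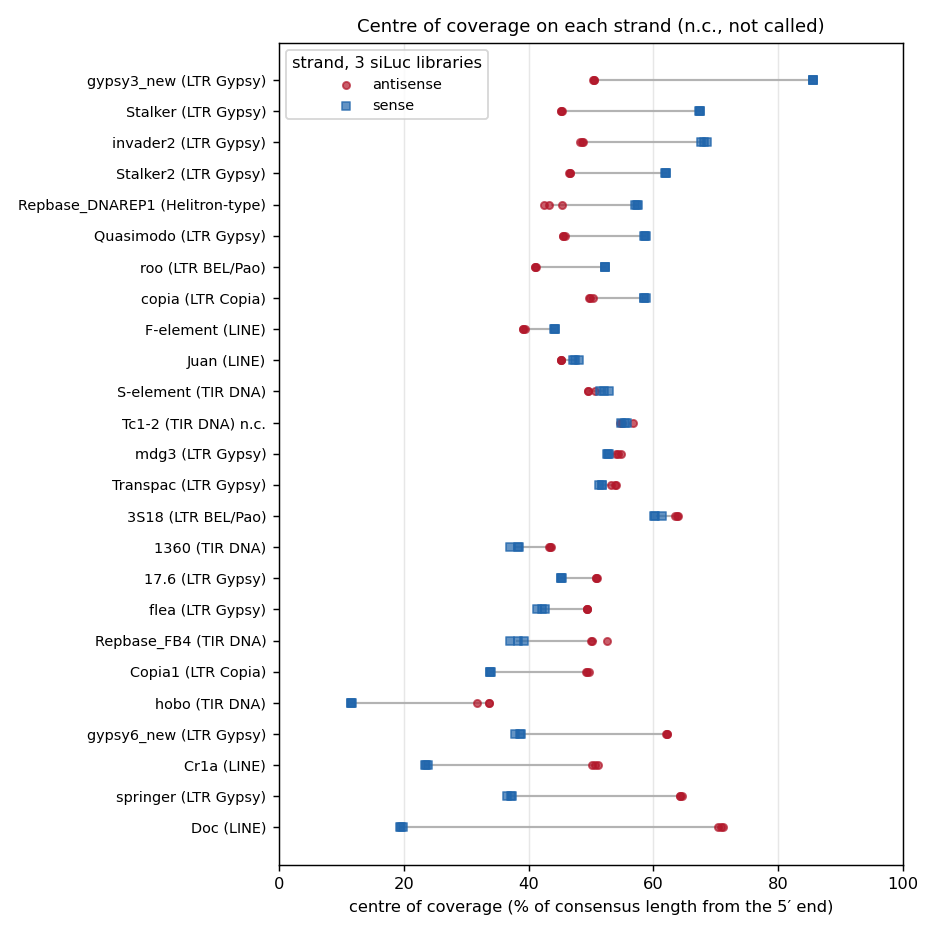
Centre of coverage as a percent of the consensus length from the 5′ end (horizontal axis) for the 25 elements with both strands above the minimum, with 1 point per strand and siLuc library and a grey line between the strand means. The strands are farthest apart in Doc, at the bottom, where the antisense points lie at 70.4% to 71.2% and the sense points at 19.4% to 19.9%, and at the top gypsy3_new has its sense points at 85.6%.

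LTR retrotransposons carry the same sequence at both ends, and the authors split a read that aligned to both ends equally between them, so identical ends show equal coverage by construction. The length of the repeat was taken from this equality where at least 95% of the compared values were equal, which held in 46 of 62 LTR elements, at 164 to 659 nt. The comparison of repeats with the inner part was added after values had been seen and has no test. Among the 31 of these elements with an antisense coverage of at least 10, the repeat was covered more than the inner part in all 3 libraries in 14 and less in 17, with a median ratio of 0.88. Among the 16 with such sense coverage it was covered more in 7 and less in 8, with a median ratio of 0.83. The sense count depended on the minimum, and with a minimum of 1 the repeat was covered more in 17 of 28 elements and less in 10, with a median ratio of 1.87. With a minimum of 10 the ratios ranged from 0.13 to 243 on the antisense and from 0.0035 to 3.69 on the sense strand, and with a minimum of 1 the highest sense ratio was 58.1.

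Copia1 and gypsy3_new show the extremes. In Copia1 the antisense coverage of the 203 nt repeat was 332 ± 65.3 and that of the inner part 1.36 ± 0.26 (SD, n = 3), a ratio of 243, while the sense coverage was 632 ± 111 and 184 ± 36.2. Dm88, also a Copia element, had an antisense ratio of 148. In gypsy3_new the 398 nt repeat had an antisense coverage of 723 ± 132 against 8.77 ± 1.27 inside, and a sense coverage of 0.41 ± 0.12 against 116 ± 18.1 inside. In this element mean antisense coverage was higher in the repeat and mean sense coverage in the inner part, where sense reads covered a small share of positions (14.2% ± 0.20 of the consensus). gypsy had an antisense ratio of 1.17, with a coverage of 3108 ± 551 in its 482 nt repeat and 2667 ± 497 inside, while its sense coverage was 42.8 ± 3.99 in the repeat and 4.58 ± 0.39 inside. McClintock, a Gypsy element, had a sense ratio of 58.1 and an antisense ratio of 0.41, and for 297, an errantivirus, they were 12.1 and 0.56. In the 26 elements with a coverage of at least 1 on both strands, the ratio was higher on the sense strand in all 3 libraries in 13.

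**Figure D3:**
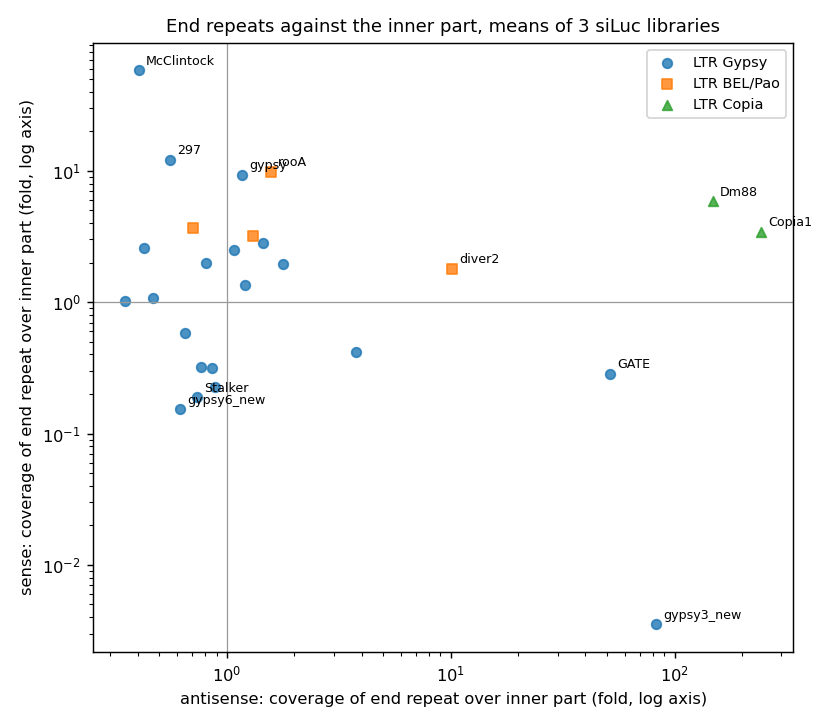
Coverage of the end repeat divided by that of the inner part, antisense on the horizontal and sense on the vertical log axis, as means of the 3 siLuc libraries for the 26 LTR elements with a found repeat and a coverage of at least 1 on both strands. Grey lines mark a ratio of 1, and the elements at the edges are named. Copia1 lies at 243 on the antisense axis and 3.43 on the sense axis, and gypsy3_new at 82.5 and 0.0035.

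To see where the higher strand changed within an element, each consensus was divided into windows of 100 nt. A window was assigned to a strand when that strand had at least 4 times the coverage of the other, with 1 added to each, in all 3 libraries and both strands together had at least 10. Of 6096 windows, 3705 reached this minimum. Antisense was the higher strand in 2428 of them (65.5%), sense in 571 (15.4%) and neither in 706 (19.1%). By class the antisense share fell in the order Gypsy (76.2% of 2354 windows), LINE (64.0% of 687), BEL/Pao (47.7% of 281), DNA transposons with terminal inverted repeats (24.3% of 226), Copia (3.36% of 149) and Helitron-type repeats (0% of 8). The share of windows assigned to neither strand was largest in the DNA transposons, at 63.3%. It was 40.2% in BEL/Pao elements, 31.3% in LINEs, 26.8% in Copia elements, 12.5% in Helitron-type repeats and 8.24% in Gypsy elements. In the mdg1 group 363 of 374 windows were antisense and 0 sense.

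**Figure D4:**
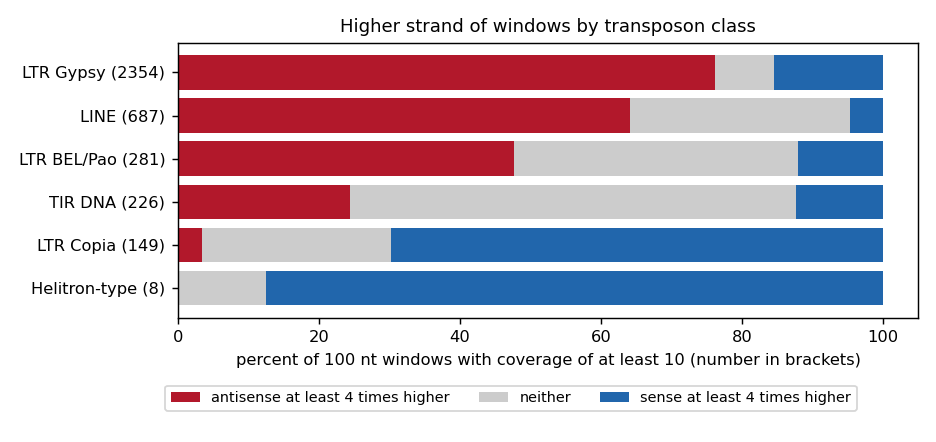
Share of 100 nt windows assigned to the antisense strand (red), to the sense strand (blue) and to neither (grey) in the 3 siLuc libraries, for windows with a coverage of at least 10, by transposon class with the number of windows in brackets. Antisense windows are 76.2% in Gypsy elements and 3.36% in Copia elements, where sense windows are 69.8%.

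Most elements had assigned windows of 1 strand only, which does not mean that the strand was higher throughout. Of the 96 elements with an assigned window, 60 had antisense windows only, 26 sense windows only and 10 had both. Elements with 1 assigned window, such as Max-element with 1 of 86, could not show a switch. In 3S18 1 window was antisense and 46 were assigned to neither, and in mdg3 6 and 49, whereas in 412 all 76 windows were antisense. The 10 held 18 switches between successive assigned windows, windows assigned to neither or below the minimum being passed over. Windows below the minimum numbered 60 of 85 in GATE, 47 of 76 in gypsy3_new, 13 of 39 in G4, 13 of 30 in hobo and 4 of 78 in gypsy6_new. There were 0 in Doc, G2, 1360, invader1 and invader2. They were 5 Gypsy elements with 12 switches (gypsy3_new with 4, and GATE, gypsy6_new, invader1 and invader2 with 2 each), 3 LINEs with 4 (G4 with 2, Doc and G2 with 1 each) and 2 DNA transposons with terminal inverted repeats (hobo and 1360) with 1 each. No Copia, BEL/Pao or Helitron-type element had one, and neither did an errantivirus or an element of the mdg1 group, with these settings. Windows of 50 nt added switches in 3S18 (BEL/Pao), Dm88 (Copia) and ZAM (errantivirus), a factor of 2 added 3S18, and Max-element (BEL/Pao) had one with a minimum of 1 or without replicate 3. Values of a segment below are means from its first to its last assigned window, those assigned to neither or below the minimum included. In GATE, gypsy3_new, gypsy6_new and invader1 the first and last segments include the end repeat. Its reads are split between both ends, so these segments partly show the same reads and their switches are not separate signals.

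gypsy3_new alternated most often. Its antisense segment from nt 1 to 3500 had an antisense coverage of 93.6 ± 16.5 and a sense coverage of 0.37 ± 0.10 (SD, n = 3), most of it in the repeat. A short sense segment followed at nt 3601 to 3800 (61.8 ± 9.03 sense against 1.27 ± 0.69 antisense). The sense segment at nt 6101 to 7100 had 849, 814 and 627 sense against 3.00, 2.50 and 1.59 antisense. In the next segment the strands were exchanged, and from nt 7201 to 7565 antisense coverage was 872, 863 and 620 while sense coverage was 0.45, 0.22 and 0.26. A gap of at least 4 times within each library, with 1 added to each strand, was set by the rule that assigned these windows.

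In the LINEs the sense segment of Doc and G2 lay at the 5′ end. Doc had a sense coverage of 959, 932 and 704 over nt 1 to 500, where antisense coverage was 164, 149 and 106. From nt 1501 to 4725, the end of the consensus, antisense coverage was 1032, 1023 and 722 and sense coverage 52.9, 50.2 and 40.1. In G2 the segment of nt 1 to 200 had 22.4 ± 4.18 sense against 2.74 ± 0.38 antisense, and that of nt 2501 to 3000 had 23.4 ± 3.99 antisense against 2.67 ± 0.27 sense (SD, n = 3). In G4 a single sense window, nt 3201 to 3300 with 71.1 ± 9.96 against 13.3 ± 2.38, interrupted antisense coverage.

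Both DNA transposons with a switch also had sense coverage first. In hobo, of the hAT family, sense coverage over nt 1 to 600 was 182, 180 and 134 and antisense coverage 29.99, 30.6 and 24.5. Over nt 701 to 2900 the antisense strand was higher, at 11.2 ± 2.30 against 2.47 ± 0.39 (SD, n = 3), with 4 of the windows assigned. The first of the 3 parts of hobo held 96.9% of its sense and 72.4% of its antisense coverage. In 1360 the sense segment of nt 201 to 500 had 430 ± 68.6 against 85.5 ± 12.8, and the antisense segment of nt 901 to 2700 had 15.6 ± 2.55 against 6.86 ± 1.36, with 4 of its windows assigned.

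In gypsy6_new 64 of 78 windows were antisense and 2 sense, at nt 801 to 1000, where sense coverage was 293 ± 56.9 and antisense coverage 33.7 ± 8.42 (SD, n = 3). invader1 had the reverse arrangement. Sense coverage was 59.9 ± 10.1 over nt 1 to 1700 and 132 ± 25.1 over nt 2701 to 4032, and between them, at nt 1801 to 2300, antisense coverage was 12.0 ± 2.68 and sense coverage 0.95 ± 0.27. GATE was antisense at both ends, with 124 ± 25.3 over nt 1 to 500 and 91.4 ± 17.7 over nt 7801 to 8507. Both values include the 272 nt end repeat, with an antisense coverage of 214 ± 43.1 from split reads. In the weakly covered part between them sense coverage was 5.95 ± 0.74 and antisense coverage 2.84 ± 0.51, with 5 windows assigned. In invader2 the sense segment at nt 3801 to 4200 had 157 ± 30.1 against 19.0 ± 3.28 and lay between antisense segments.

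**Figure D5:**
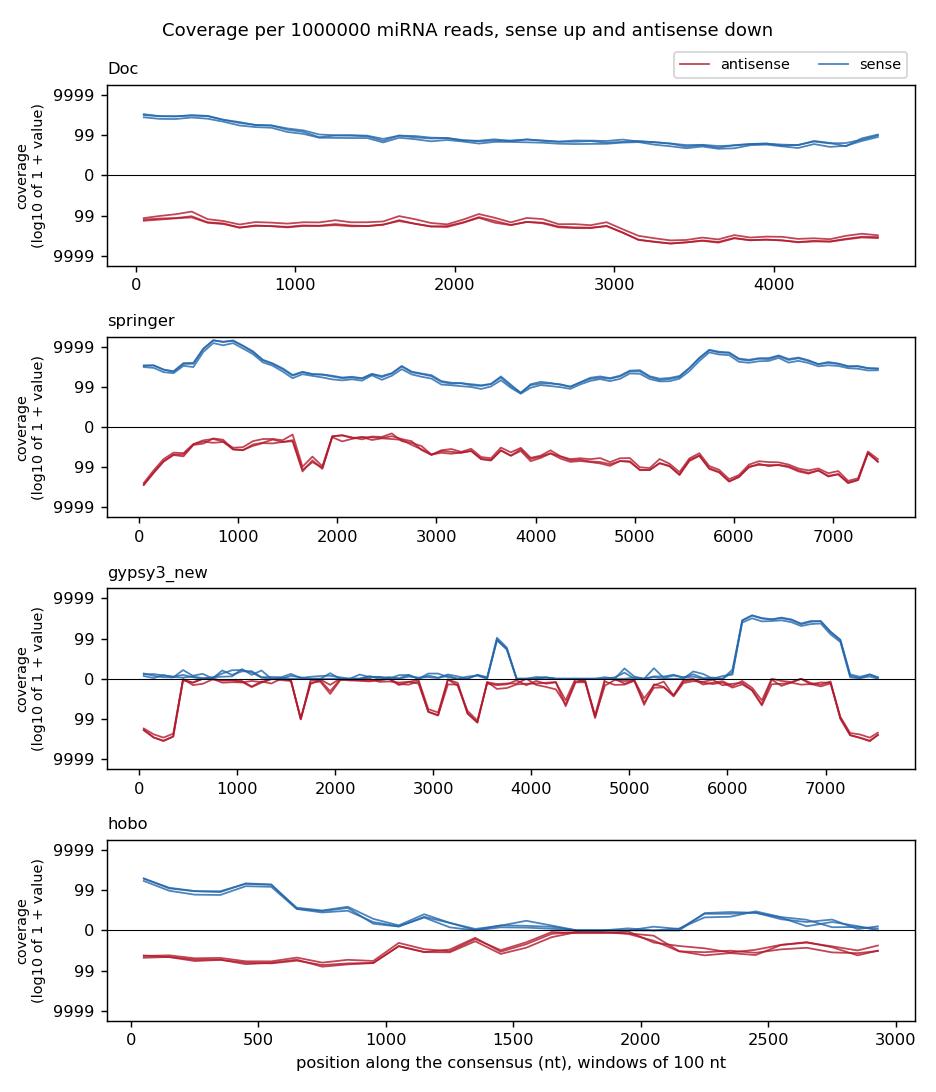
Mean coverage in 100 nt windows along the consensus of Doc, springer, gypsy3_new and hobo, sense upwards and antisense downwards on a scale of log10(coverage + 1) per 1000000 miRNA reads, with 1 line per siLuc library. In Doc sense coverage is highest over nt 1 to 500 and antisense coverage beyond nt 3000, and in gypsy3_new the sense block of nt 6101 to 7100 ends where the antisense block of nt 7201 to 7565 begins.

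The number of switches depended on how a window was assigned. With a factor of 2 in place of 4 there were 40 switches in 21 elements, and with a factor of 10 there were 10 in GATE, gypsy3_new, gypsy6_new, hobo and invader2. All 10 elements kept a switch when any 1 of the 3 libraries was left out, with 18 to 22 switches in 10 to 12 elements.

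The same windows were then examined in the 2 Gal4 control libraries, which had 87066 and 110492 miRNA reads. Line, transfection and 3′ adaptor of these 2 libraries also differed from those of siLuc. Of the 2999 windows assigned in siLuc, 2990 had the same higher strand in both (99.7%, 95% Wilson interval 99.4% to 99.8%, which covers counting error only and treats windows as independent, which neighbours are not). All 571 sense windows did, as did 2419 of the 2428 antisense windows. Of the other 9, 8 differed between the 2 Gal4 libraries and 1 had the opposite strand in both. That window was nt 2101 to 2200 of invader2, with 79.6 antisense and 14.0 sense in siLuc and 41.8 antisense and 66.3 sense in Gal4.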

How the data were processed

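Small RNAs were measured in 10 OSC libraries, of which the 3 siLuc and, to describe the higher strand of windows and elements, the 2 Gal4 libraries were used here, grouped by the sample labels. The authors trimmed adaptors with cutadapt, kept reads of 24 to 35 nt, aligned them with Bowtie to RepBase-based consensus sequences with up to 2 mismatches, kept reads with 1 or 2 places in a single consensus (0.5 per place where there were 2), and deposited the coverage signal per position and strand per 1000000 miRNA reads. Reads of more than 1 consensus were dropped, which lowers the coverage of parts that elements share. The versions of the tools used for the small RNA libraries are not given in the sources used here. The antisense table holds negative values, and their size was used. There was no column of another series and none with the authors' comparisons.

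Gini coefficient, covered share, stretches and centre do not change with the scaling to miRNA reads, but they depend on depth, which was read from the smallest step between values (all values were multiples of it). Differences were taken within each library, since both strands come from the same library, and tested with limma 3.58.1 in R 4.3.3 with a trend of the spread on coverage, over elements with a mean of at least 10 on both strands, or on either for the level. With 3 pairs an exact sign-flip test of a single element cannot go below p = 0.25, so the limma p-values rest on spread shared across elements. Stretch counts were identical in all libraries for some elements, whose spread limma offset from 0. Tables and figures used Python 3.11.15, numpy 2.4.6, pandas 2.3.3, scipy 1.17.1 and matplotlib 3.10.9.

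The fit was tested on a single simulated draw per measure. The draw held normal differences, with the spread of each element raised to at least the median spread. Smaller spreads, such as those of stretch counts identical in all libraries, were thus not simulated. The fit recovered 20 of 20 changed elements among 79 for a log2 strand ratio of 1 with 0 false calls. Among 25 elements it recovered 8 of 8 for changes of 0.1 in the Gini coefficient and of 10 points in covered share, with 1 false call each. It also recovered 8 of 8 for 1 stretch per 1000 nt and for 10 points in the centre, with 0 false calls.

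Elements were named by rule: the 5 with the most coverage on each strand, the 3 largest differences in each direction per test with the same sign in all libraries, the 10 with the most switches, and the 3 most and least even profiles per strand, others only as examples of a class. Dm88, McClintock, 297, Tc1-2 and the repeat comparison were chosen after their values were seen. Members, classes and the rule were chosen with earlier results of these data known, and classes were assigned from element names by general knowledge. Alternatives were other minimums, limits, joining distances, windows and pseudocounts, fits without the trend or pairing, and each library left out.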

Additional observations from a re-analysis of the deposited data

Results flagged for a closer look

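The ratio of antisense to sense coverage of invader2 had opposite signs in the 2 sets of control libraries. On the log2 scale with 1 added it was 0.11 in siLuc (0.01 to 0.17 over 3 libraries) and −0.81 in Gal4 (−0.84 and −0.79). The 2 sets differ in line, transfection, 3′ adaptor and depth, which cannot be told apart here, and the difference between the sets was not tested. Of the 79 elements with at least 1 strand above the minimum, 77 had the same higher strand in all 5 libraries, and in 1 the libraries of a set did not share a sign.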

How the results depend on the processing

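Values below give antisense higher first and sense higher second. With a minimum coverage of 1 the counts were 10 and 55 of 74 elements for the Gini coefficient, 38 and 13 for covered share, 10 and 25 for stretches, and 33 and 34 for the centre. A minimum of 100 left 2 elements, Doc and F-element, with limma counts of 0 and 2, 1 and 0, 0 and 0, and 1 and 1 in that order, and each count of 0 also had 0 at an unadjusted p below 0.05. With strands within 4 times of each other (10 elements) they were 1 and 8, 7 and 0 (0 at an unadjusted p below 0.05), 1 and 2, and 5 and 4. For the strand level, no filter gave 79 antisense calls of 121, and a minimum of 100 gave 33 and 9 of 42. Without the pairing of strands within a library (no replicate block), the Gini counts were 4 and 17, and the counts of the other measures stayed within 1.5 times. Counting positions above 0 as covered left 1 element with more sense coverage. Stretches without joining gave 13 sense calls, joining within 100 nt gave 3, and a limit of 1 in coverage gave 2 antisense calls. Leaving out a library gave 0 to 4 antisense and 2 to 3 sense calls. Switches numbered 40 in 21 elements at a factor of 2, 10 in 5 at 10 and 5 in 3 at a minimum of 100. The Gal4 share was 99.9% for windows assigned in siLuc at a factor of 10 and 100% for those at a minimum of 100. The covered share of Quasimodo reversed to +0.60, +1.85 and +23.0 points with limits of above 0, 1 and 10, that of springer to +1.00 with a limit of 25% of the mean, and the stretches of Quasimodo to −0.18 with a limit of 1. The cause was not tested. For the named elements, 255 values kept their direction and side of the threshold, 14 fell short of it and 5 reversed. These elements were chosen for large differences. Another minimum, or a fit without the trend or pairing, leaves the difference itself unchanged, so such values could not reverse. The 4 reversals in covered share passed the threshold in the other direction (limma adjusted p of 8.6e-05 to 0.039). Precision is limited by sense depth, and replicate numbers link no samples across lines.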
